A study of Mus musculus with 12 samples.

Results

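The genes described here are the mouse chromatin remodellers, histone lysine methyltransferases and demethylases, AT-rich interaction domain genes and zinc-dependent histone deacetylases, followed through increasing times of metabolic RNA labelling. They were chosen by symbol, as genes named Kdm, Setd, Chd or Arid with a member number, Kmt2 or Kmt5 with a letter, any Smarc, or Hdac with a number and nothing after it. Family names below follow the symbol, whatever the activity of each protein. The rule found 79 of the 17419 genes measured. Of these, 74 passed the filter on low counts and were tested, and 65 had a mean count of at least 100 and are used wherever the labelled share of a gene is given. The 5 that were not tested, Arid3b, Arid3c, Chd7, Kdm4d and the antisense gene Kdm6bos, each had a mean count of 1.9 or less. Kdm6bos is named as the opposite strand of Kdm6b, and since the use of strand in counting is not given, its reads and those of Kdm6b cannot be told apart.

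The cells were NIH-3T3, an immortalised mouse embryonic fibroblast line, labelled wild type in every group. They received 4-thiouridine (4sU), a uridine analogue that cells build into new RNA, at 800 µM for 15, 30, 60, 90 or 120 min, and a group without 4sU (no4sU) served as the control. Iodoacetamide was applied to the RNA so that incorporated 4sU is read as cytosine where the gene has thymine, which separates new from old transcripts (SLAM-seq). Each of the 6 groups held 2 libraries, lettered A and B, and nothing in the labels says that these came from separate cultures, so every p-value and SD measures the spread between these libraries, which may be technical.

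Total reads per library ran from 9917026 to 13739380, and the 79 genes together took between 0.50% and 0.57% of them. Of 12 fibroblast markers, 11 had a mean of at least 10 CPM (counts scaled to library size), and none of the epithelial, haematopoietic or endothelial markers in the table did. The unlabelled libraries differed from each other in a way that touches this set. Of the 65 genes, 51 (78.5%) were lower in no4sU A than in no4sU B, against 49.8% of all 9065 genes with such counts, and the median log2 difference of A from B was -0.128 against 0.00112. Across the 65 genes this difference had a Spearman correlation of -0.625 with gene length, and the set's median gene length was 6113 bases against 3596 for all genes. For that reason the 120 min libraries were set first against those at 15 min, and the comparison with no4sU follows with each of its libraries left out.

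Lysine methyltransferases of the Kmt2, Setd1 and Setd2 type place methyl groups on histone tails, and the Kdm demethylases take them off. SWI/SNF, ISWI and CHD remodellers use ATP to move or evict nucleosomes, with Arid1a, Arid1b and Arid2 as subunits that help define which SWI/SNF assembly forms, while Hdac enzymes remove acetyl groups from histones and other proteins. Many of these genes are dosage sensitive, and most of their proteins act in multi-subunit complexes.

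Uridine is where 4sU enters a transcript, so the thymine content of the gene sets how many labelled positions a new RNA can carry. The paralogues Kdm6a and Kdm6b, both demethylases acting on trimethylated lysine 27 of histone H3, are printed because both were in the highest 10% of all genes by labelled share at 120 min and yet went apart in level. They were chosen for display after their values were seen. Both are the last 150 coding bases before the stop codon, read 5′ to 3′ on the sense strand from the GENCODE M21 transcript models on GRCm38, with every T in capitals. The Kdm6a gene (ENSMUSG00000037369) lies on chromosome X at 18162575 to 18279936, plus strand, and the Kdm6b gene (ENSMUSG00000018476) on chromosome 11 at 69398508 to 69413675, minus strand.
Kdm6a: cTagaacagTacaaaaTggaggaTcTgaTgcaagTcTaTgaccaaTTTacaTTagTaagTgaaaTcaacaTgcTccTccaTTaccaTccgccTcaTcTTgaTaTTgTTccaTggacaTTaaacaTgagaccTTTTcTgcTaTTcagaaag
Kdm6b: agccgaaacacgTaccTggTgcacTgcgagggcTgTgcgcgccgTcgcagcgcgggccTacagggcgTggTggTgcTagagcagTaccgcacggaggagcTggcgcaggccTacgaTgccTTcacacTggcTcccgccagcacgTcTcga
The Kdm6a stretch held 44 T in 150 bases (29.3%) and the Kdm6b stretch 22 (14.7%). A global alignment of both stretches paired 145 bases, of which 58 were identical. Over the whole transcript the U share was 28.0% for Kdm6a and 19.5% for Kdm6b.

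The labelled share of each gene was read from the new-to-total ratio (NTR), the authors' estimate of the fraction of a gene's RNA made since labelling began. The chromatin genes came to carry a larger share of new RNA than the table as a whole. From 15 to 30 min of labelling their median NTR went from 1.24% ± 0.721 to 6.55% ± 0.0707, then to 24.3% ± 1.32 after 60 min and 41.8% ± 1.40 after 90 min (SD, n = 2). After 120 min both libraries gave a median of 63.5%. For all 9065 genes the medians in the same order were 1.01%, 5.21%, 15.5%, 24.4% and 35.4%. The chromatin genes and the full table were within the replicate spread of each other at 15 min and parted from 30 min on. The mean NTR rose at every step for 61 of the 65 genes, the exceptions being Arid3a, Hdac10, Smarca2 and Smarcd3.

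**Figure D1:**
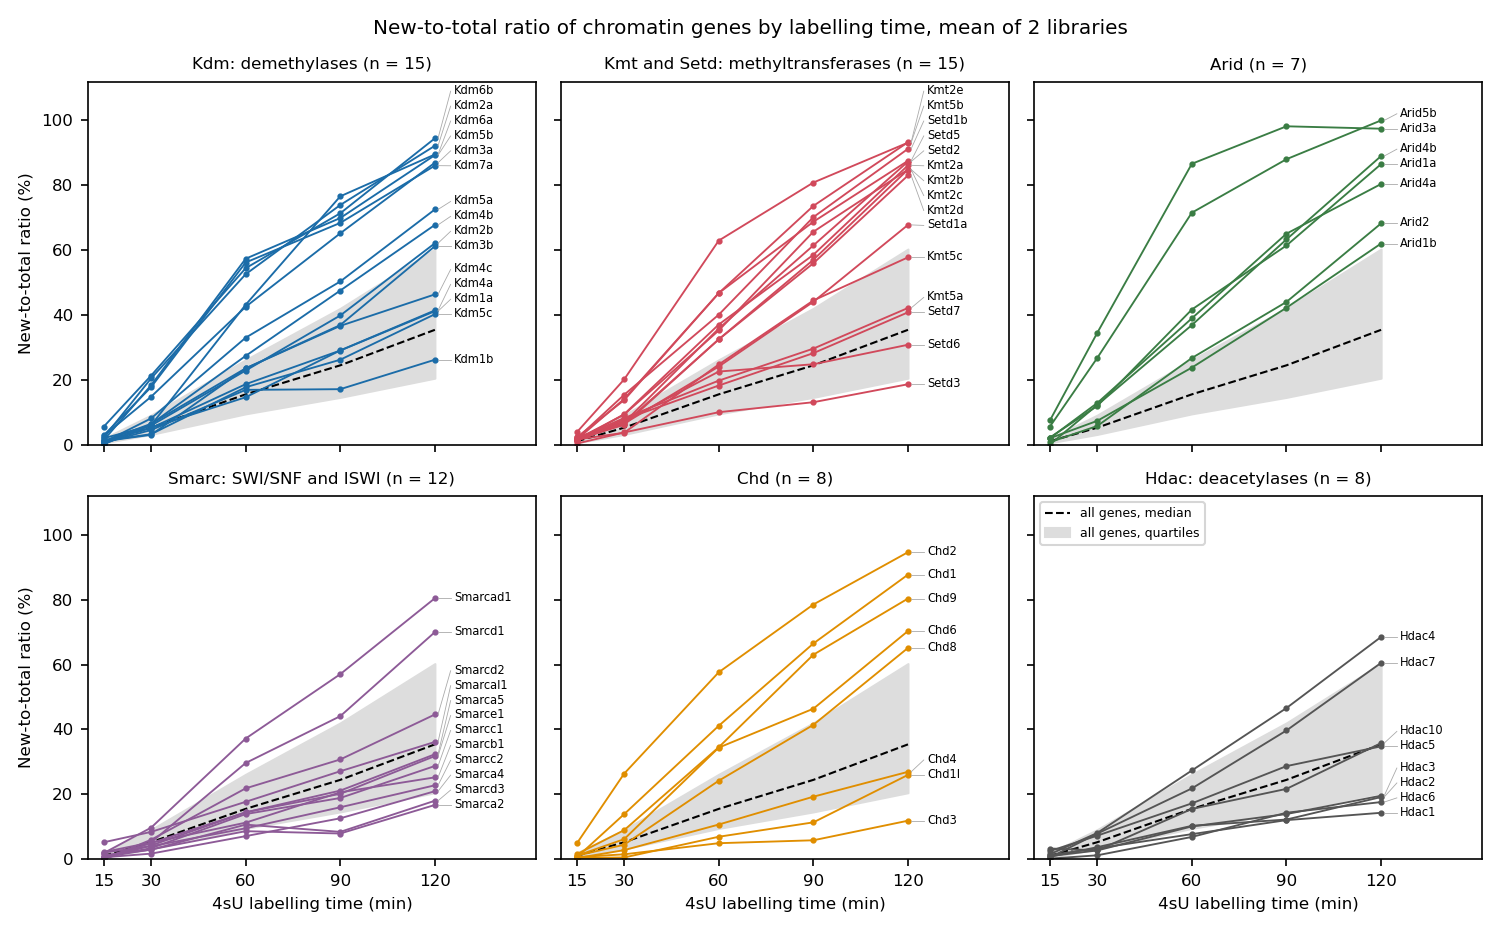
New-to-total ratio (%) of each chromatin gene against 4sU labelling time (min), in 6 panels by family, each point the mean of 2 libraries. The dashed line is the median of all 9065 genes and the grey band their quartiles; the Arid panel lies above the band at 120 min, while most Smarc and Hdac genes lie within or below it.

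At 120 min, 46 of the 65 genes were above the median of all genes, 36 (55.4%) were above the upper quartile of all genes, 60.3%, and 18 (27.7%) were among the highest 10% of all genes. A ratio of at least 50% was reached by 37 of the 65 (56.9%), against 33.5% of all genes. No test was made of these shares, since 2 libraries cannot support one on the ratio. The deposited 90% interval of a single gene's NTR at 120 min had a median width of 8.98 percentage points, with a range from 2.85 to 22.4.

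The families differed from one another. All 7 Arid genes were above the upper quartile, with a median NTR of 86.5% at 120 min. The Kmt and Setd genes followed at 84.8% (10 of 15 above the upper quartile). Then came the demethylases at 67.8% (10 of 15) and the Chd genes at 67.8% (5 of 8). The Smarc genes had a median of 30.3%, with 2 of 12 above the upper quartile, and the deacetylases 27.2%, with 2 of 8. Both of these last medians were below that of all genes.

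The highest ratios were those of Arid5b, Arid3a, Chd2, Kdm6b and Kmt2e. Arid5b, a DNA-binding cofactor of a demethylase complex, was estimated at 100% in both 120 min libraries, after 69.8% and 73.3% at 60 min. Arid3a, a DNA-binding transcription factor, was at 94.9% and 100% and had already reached 87.0% and 86.3% after 60 min of labelling. Chd2 was at 91.7% and 97.7%, Kdm6b at 93.3% and 95.6%, and Kmt2e, a PHD and SET domain protein, at 91.9% and 94.7%. The libraries of neighbouring genes in this order overlapped, so the order is not resolved.

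The lowest were those of Chd3, Hdac1, Smarca2, Hdac6 and Smarcd3. Chd3, a NuRD ATPase, was at 11.6% and 12.1% at 120 min, the single member among the lowest 10% of all genes. Hdac1, a class I deacetylase, was at 14.9% and 13.6%, Smarca2, one of the alternative SWI/SNF ATPases, at 14.5% and 18.9%, Hdac6 at 18.4% and 16.8% and Smarcd3 at 21.4% and 14.6%. Their libraries did not overlap with those of any of the 5 highest genes, which follows from picking both ends by this ratio and is no separate result.

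Ratios can be turned into an apparent half-life by taking the new share as 1 minus an exponential decay at constant synthesis. By that conversion the median at 120 min was 83.5 ± 1.02 min for the 63 chromatin genes with a defined value and 198 ± 5.41 min for all genes (SD, n = 2). Kdm6a was at 36.9 ± 3.13 min, Chd2 at 27.8 ± 7.96 min, Hdac1 at 541 ± 37.1 min and Chd3 at 660 ± 17.7 min. The value depended on the labelling time from which it was taken. For the chromatin genes the median was 286 ± 1.20 min from the 30 min libraries, 149 ± 9.31 min from 60 min and 117 ± 7.40 min from 90 min, and for all genes it went from 368 at 30 min to 198 at 120 min. The order of genes was better preserved, with a Spearman correlation of 0.862 between the NTR at 30 and at 120 min across the 65 genes, a description over genes that share their libraries.

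Levels were then compared at 120 min against 15 min, the comparison that asks how the measured abundance of a gene moves with time in 4sU. In bulk RNA fewer cells with a transcript and less of it per cell cannot be told apart. Of the 74 genes tested, 16 were lower and 2 were higher (edgeR quasi-likelihood test, Benjamini-Hochberg adjusted p below 0.05 over all 11564 genes). That is 21.6% lower and 2.7% higher, where 11.3% of all genes tested were called lower and 7.93% higher. The median log2 fold change of the 74 genes was -0.08 and that of all genes 0.01. The libraries at 120 min and at 15 min did not overlap for 39 genes in the lower direction and 19 in the higher, against 32.7% and 33.3% of all genes tested. The count of lower genes was smaller without 15min A or 120min B and larger without either no4sU library. Over all genes it moved the same way.

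**Figure D2:**
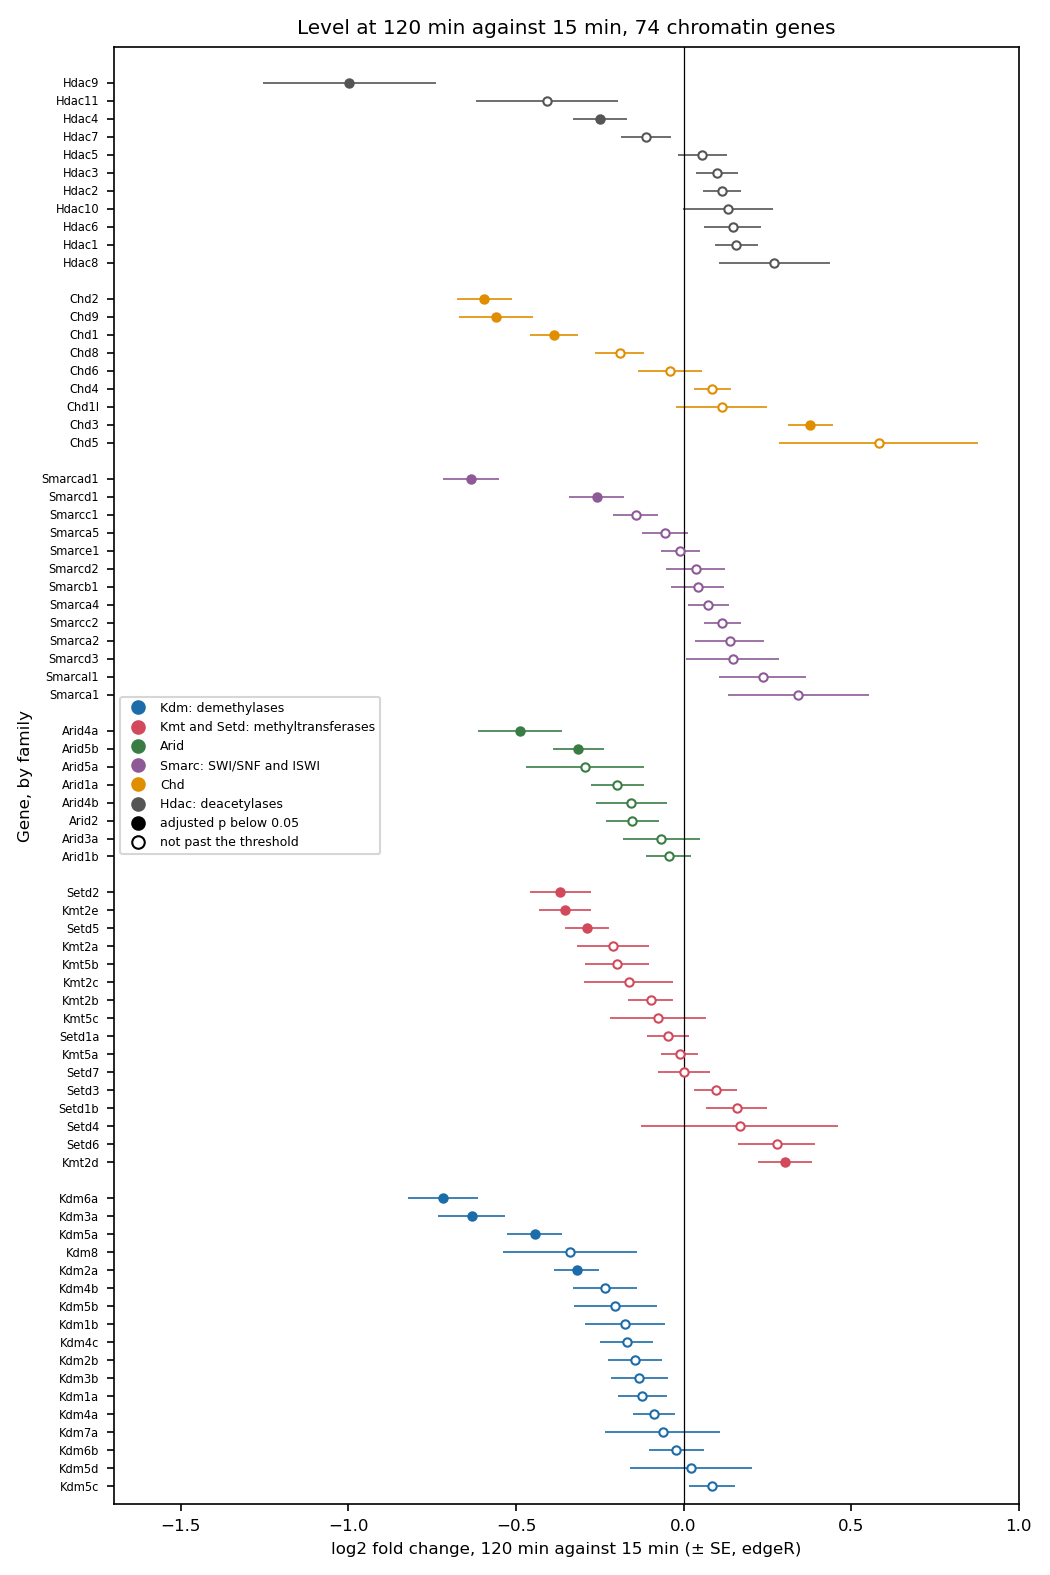
Log2 fold change of 120 min against 15 min with its SE for the 74 tested chromatin genes, ordered within family. Filled points have an edgeR adjusted p below 0.05: 16 lie left of 0 and 2, Chd3 and Kmt2d, to the right.

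Among the demethylases, 4 of 17 tested were lower and none higher, and 15 of the 17 had a fold change below 0. Kdm6a fell most. The 15 min libraries held 28.7 and 27.3 CPM (A, B), those of 30 min 26.9 and 24.9, of 60 min 25.1 and 27.6, of 90 min 21.4 and 19.9, and of 120 min 16.6 and 17.4, against 22.8 and 26.4 without 4sU. Its decline came after 60 min, and both 120 min libraries were below all 10 others. The log2 fold change was -0.72 ± 0.104 (SE), with an edgeR adjusted p of 0.000191.

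Kdm3a, a demethylase of lysine 9 of histone H3, went from 95.7 and 88.1 CPM at 15 min through 74.5 and 74.3 at 60 min to 56.5 and 61.8 at 120 min. It was already outside the 15 and 30 min range at 60 min, earlier than Kdm6a, with a log2 fold change of -0.63 ± 0.101 (edgeR adjusted p = 0.000407). Its unlabelled libraries stood at 78.0 and 103 CPM and spanned the early labelled values. Kdm5a, which removes methyl groups from lysine 4 of histone H3, fell by 0.44 on the log2 scale and Kdm2a, a demethylase of lysine 36, by 0.32. The call for Kdm2a was lost without 15min A and without 120min B, while Kdm6a, Kdm3a and Kdm5a were called with any 1 of the 12 libraries left out.

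Kdm6b was not called. It was at 42.5 and 39.1 CPM at 15 min and at 40.2 and 40.1 at 120 min, a log2 fold change of -0.02 ± 0.0821 (edgeR adjusted p = 0.878), with a highest value of 45.6 in 30min A. Kdm1a, the flavin-dependent demethylase, had a log2 fold change of -0.12, Kdm4a -0.09 and the X-linked Kdm5c 0.09, and none of these passed the test. Kdm7a was at -0.06 with an SE of 0.172, the widest of the demethylases with a mean count of at least 100.

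Of the 16 Kmt and Setd genes tested, 3 were lower and 1 higher. Setd2, the enzyme for trimethylation of lysine 36, fell by 0.37, Kmt2e by 0.35 and Setd5 by 0.29 on the log2 scale. Setd2 went from 122 and 125 CPM at 15 min to 95.8 and 95.1 at 120 min, and its unlabelled libraries, at 94.0 and 127, covered the whole of that range. The call for Setd2 was lost in 4 of 12 fits with a library left out, and those for Kmt2e and Setd5 in 2 each.

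Kmt2d, a large methyltransferase of enhancers, rose. The 15 min libraries held 116 and 115 CPM, those of 30 min 119 and 108, of 60 min 128 and 117, of 90 min 134 and 124, and of 120 min 150.4 and 136, with 104 and 125 in the unlabelled libraries. Both 120 min libraries were above every other library. The log2 fold change was 0.30 ± 0.0808 (edgeR adjusted p = 0.0126), and the call was lost without 15min A, without 15min B and without 120min A. Its NTR of 83.0% at 120 min placed it above the upper quartile, where 41.9% of all genes were called lower.

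**Figure D3:**
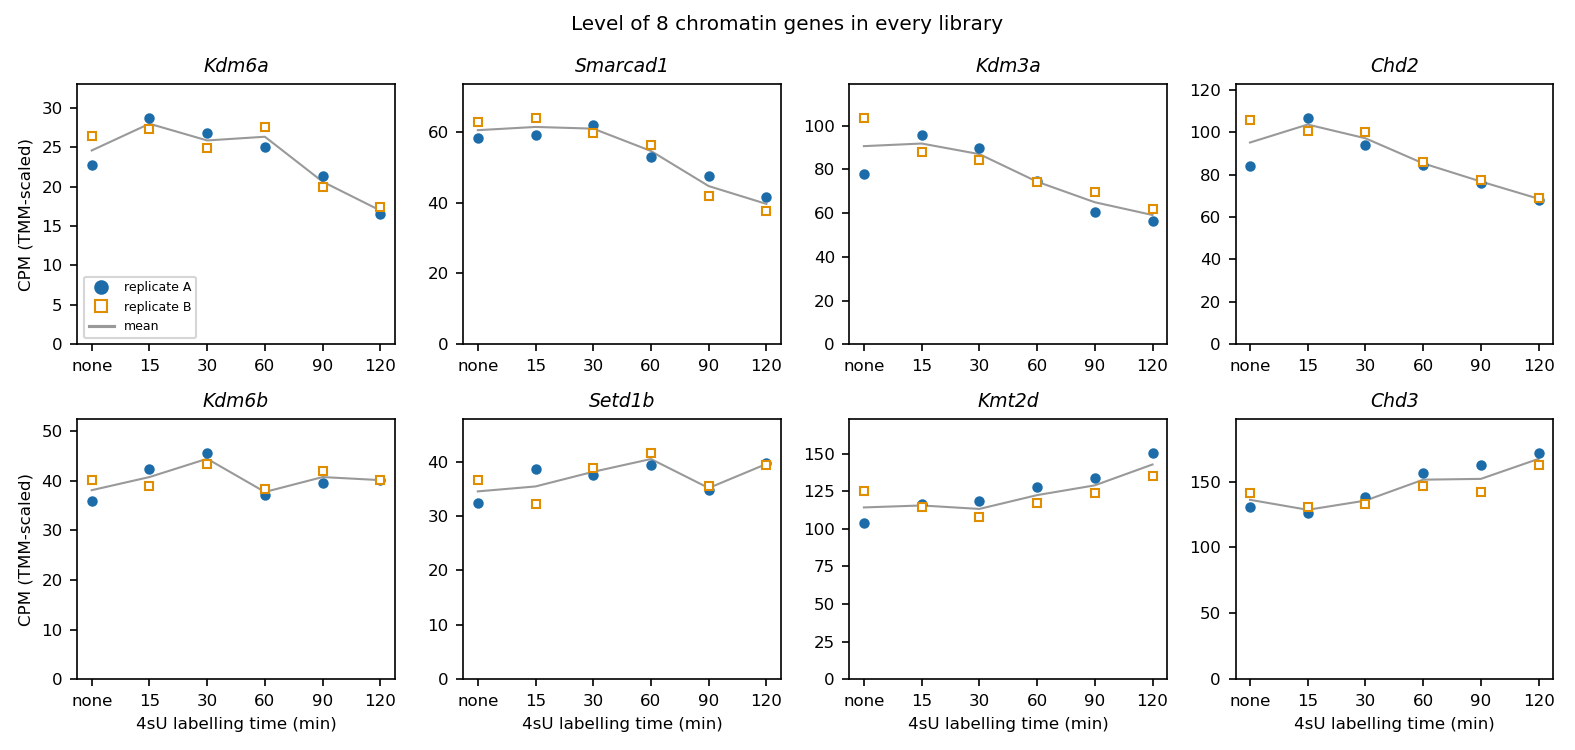
Level (CPM, TMM-scaled) in each of the 12 libraries for 8 chromatin genes against 4sU labelling time (min); filled circles are replicate A, open squares replicate B and the line their mean. Kdm6a, Smarcad1, Kdm3a and Chd2 end below their 15 min values, Kdm6b and Setd1b do not, and Kmt2d and Chd3 end above.

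In the Chd family 3 of 9 tested genes were lower and 1 higher. Chd2 had 107 and 101 CPM after 15 min, 94.0 and 100.2 after 30 min, 84.8 and 85.8 after 60 min, 76.0 and 77.5 after 90 min and 68.1 and 69.2 after 120 min. From 60 min on, each group lay below the one before it without overlap, and the log2 fold change was -0.59 ± 0.0824 (edgeR adjusted p = 0.00013). Chd9 fell by 0.56 and Chd1, a remodeller that binds methylated lysine 4 of histone H3, by 0.39, and all 3 calls held with any 1 library left out.

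Chd3 rose from 126 and 131 CPM at 15 min to 172 and 163 at 120 min, with 131 and 141 in the unlabelled libraries. Its log2 fold change was 0.38 ± 0.0674 (edgeR adjusted p = 0.000904), and the call was kept in every leave-one-out fit. Chd4, the other main NuRD ATPase and per kilobase the most abundant of the 79 genes at 61.1 CPM per kilobase in the 15 min libraries, had a log2 fold change of 0.09 ± 0.0546 that did not pass the test. Chd8 was at -0.19 and Chd6 at -0.04, neither of them called. The NTR of Chd3, 11.8% at 120 min, was below the lower quartile of all genes, 20.5%. Of the 2266 genes in that range, 731 were called and 0.0% were lower. The median log2 fold change of these 2266 genes was 0.17. With the new part of each count raised for an assumed loss, as described below, Chd3 was not called.

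Of 13 Smarc genes tested, 2 were lower and none higher, and Smarcad1, a remodeller that acts at replicated and damaged chromatin, fell most. The 15 min libraries held 59.0 and 63.8 CPM, those of 30 min 62.0 and 59.8, of 60 min 52.9 and 56.3, of 90 min 47.5 and 41.9, and of 120 min 41.7 and 37.7, against 58.2 and 62.8 without 4sU. The unlabelled, 15 and 30 min libraries overlapped, and all later ones were below them. The log2 fold change was -0.63 ± 0.0824 (edgeR adjusted p = 6.9e-05).

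Smarcd1, an accessory SWI/SNF subunit, was the other Smarc gene called, with a fall of 0.26 on the log2 scale, and that call was lost in 3 of 12 fits with a library left out. The catalytic and core subunits were not called. Smarca4 had a log2 fold change of 0.07, Smarca2 0.14, the ISWI ATPase Smarca5 -0.05, Smarcb1 0.04 and Smarce1 -0.01.

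The Arid genes all had fold changes below 0, from -0.49 to -0.04, and 2 of the 8 tested were called lower. Arid4a, a retinoblastoma-binding subunit of a deacetylase complex, fell by 0.49 and Arid5b by 0.31 on the log2 scale. Each of these calls was lost in 2 of 12 fits with a library left out. Arid5b went from 103 and 100.0 CPM at 15 min to 82.8 and 80.5 at 120 min, a smaller change than that of Chd2 or Kdm6a, although its NTR was the highest of the set. The SWI/SNF subunits Arid1a, Arid2 and Arid1b had log2 fold changes of -0.20, -0.15 and -0.04 and were not called.

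Of 11 deacetylases tested, 2 were lower and none higher. Hdac4, a signal-responsive class IIa enzyme, fell by 0.25 on the log2 scale, a call lost in 4 of 12 fits with a library left out. Hdac9 fell by 1.00 ± 0.258 at a mean count of 25.9, too low for its NTR to be used here, and was lost in 2 of 12. The class I enzymes Hdac1, Hdac2, Hdac3 and Hdac8 had log2 fold changes of 0.16, 0.12, 0.10 and 0.27 without passing the test.

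The calls that depended on a single library did so on those of the groups compared, with 1 exception. Without 15min A the calls for Arid4a, Arid5b, Hdac4, Hdac9, Kdm2a, Kmt2d, Kmt2e, Setd2, Setd5 and Smarcd1 were lost. Without 120min B those for Arid4a, Arid5b, Hdac4, Kdm2a, Kmt2e, Setd2 and Smarcd1 were lost. Without 15min B, Hdac4, Kmt2d, Setd2 and Smarcd1 were lost, without 120min A, Hdac9, Kmt2d, Setd2 and Setd5, and without 60min B, Hdac4. The edgeR adjusted p of these genes reached at most 0.351 (Smarcd1), and no fold change turned its direction. Chd1, Chd2, Chd3, Chd9, Kdm3a, Kdm5a, Kdm6a and Smarcad1 lost no call in the 12 fits.

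Set against the unlabelled group, 11 of the 74 genes were lower at 120 min and 2 higher by the same edgeR test, 14.9% and 2.7%, where 8.78% and 5.43% of all genes tested were called. All 11 and both were among the genes called against 15 min, a comparison that shares the 120 min libraries. The 5 that were lower only in the latter were Arid5b, Hdac4, Hdac9, Setd2 and Smarcd1. No overlap between the groups was seen for 26 genes in the lower and 14 in the higher direction, against 26.7% and 24.9% of all genes tested. The counts depended on which unlabelled library was used, over all genes as over the chromatin genes. Without no4sU A more genes were lower and more were higher in both sets. Without no4sU B fewer were lower and more were higher in both sets. A fit of only the 2 groups compared gave 3 lower and 0 higher by edgeR, with 15 of the 74 genes at an unadjusted p below 0.05. Raising the new part of each count for an assumed loss, as described below, gave 2 lower and 3 higher. Over all 11593 genes tested that scaling gave 102 lower and 92 higher. It turned the direction of Kmt2e, Setd5 and Kdm2a. Leaving out 120min A or 120min B gave fewer lower genes in both sets.

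Kmt2c, an enhancer methyltransferase and the paralogue of Kmt2d, is an example. It was at 34.3 CPM in no4sU A and 56.4 in no4sU B, and between 47.9 and 54.5 in all 10 labelled libraries. Its log2 fold change against no4sU was 0.06 with both, -0.23 without no4sU A and 0.49 without no4sU B.

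A slope over the 10 labelled libraries uses every labelling time and none of the unlabelled ones. By the edgeR test on labelling time, 26 of the 74 genes declined (35.1%) and 7 rose (9.46%), where 19.5% and 18.3% of the 11526 genes tested did. The slope uses the same 15 and 120 min libraries as the comparison of 120 against 15 min, so the inclusion of all its 16 lower and both higher genes is no independent support. The 10 that were lower only here were Arid1a, Arid2, Arid4b, Chd8, Kdm3b, Kdm4b, Kmt2a, Kmt2c, Kmt5b and Smarcc1, and the 5 that were higher only here were Chd4, Hdac1, Hdac2, Setd6 and Smarcc2. With TMM scaling 78.8% of the called members were lower, and with library size alone 91.9%, as 34 lower and 3 higher. Over all 11526 genes the calls moved the same way. They went from 2251 lower and 2111 higher with TMM scaling to 3031 and 1172 with library size alone. With the new part of each count raised for the assumed loss described below, 8 genes were lower and 8 higher (50.0% lower). Over all 11591 genes tested that scaling gave 856 lower and 650 higher. It changed the sign of the 15 slopes listed in the closing section. Of these, the slopes of Kmt2b, Kdm6b, Arid3a and Setd1a had not been called.

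Among the called genes averaging 100 counts or more, the steepest slopes were those of Kdm6a, at -0.39 per hour on the log2 scale, Smarcad1 at -0.39, Kdm3a at -0.38 and Chd2 at -0.34, and of Chd3 at 0.20 and Kmt2d at 0.18 in the other direction. Hdac9, with a mean count of 25.9, was called at -0.45 per hour. Among the 5 genes called as higher on the slope alone, Setd6, at 0.18 per hour, was the steepest, and the slopes of Chd4, Hdac1, Hdac2 and Smarcc2 lay between 0.05 and 0.09. Among the genes called on the slope alone, the call for Smarcc2 was lost in 8 of 10 fits with a library left out. That for Kmt2c was lost in 6, those for Arid4b, Kdm3b and Chd4 in 5 each, and those for Kdm4b and Hdac2 in 4 each. The calls for Kmt2a, Kmt5b and Hdac1 were kept in every such fit. Without 120min B the number declining was 17, and the number rising was 4 without 15min A, 15min B or 120min A.

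Fold change and labelled share went together across the set. The Spearman correlation of the log2 fold change of 120 against 15 min with the NTR at 120 min was -0.694 over the 65 chromatin genes and -0.763 over all 9065 genes. Genes are not independent replicates, and both measures come from the same 120 min libraries. With all genes divided at the quartiles of the NTR, the chromatin genes had median log2 fold changes of 0.14 (8 genes), 0.06 (11), -0.01 (10) and -0.20 (36) from the lowest to the highest bin. The same medians over all genes were 0.17, 0.06, -0.07 and -0.24. In the highest bin 15 of 36 chromatin genes were called lower, and 41.9% of all genes there were. No chromatin gene in the other 3 bins was called lower, where 0.0%, 1.06% and 12.4% of all genes were, from the lowest bin up. The lowest bin held Chd3, the 1 of its 8 chromatin genes that was called, and 731 of all 2266 genes there were called. In each bin the median of the chromatin genes lay close to that of all genes.

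**Figure D4:**
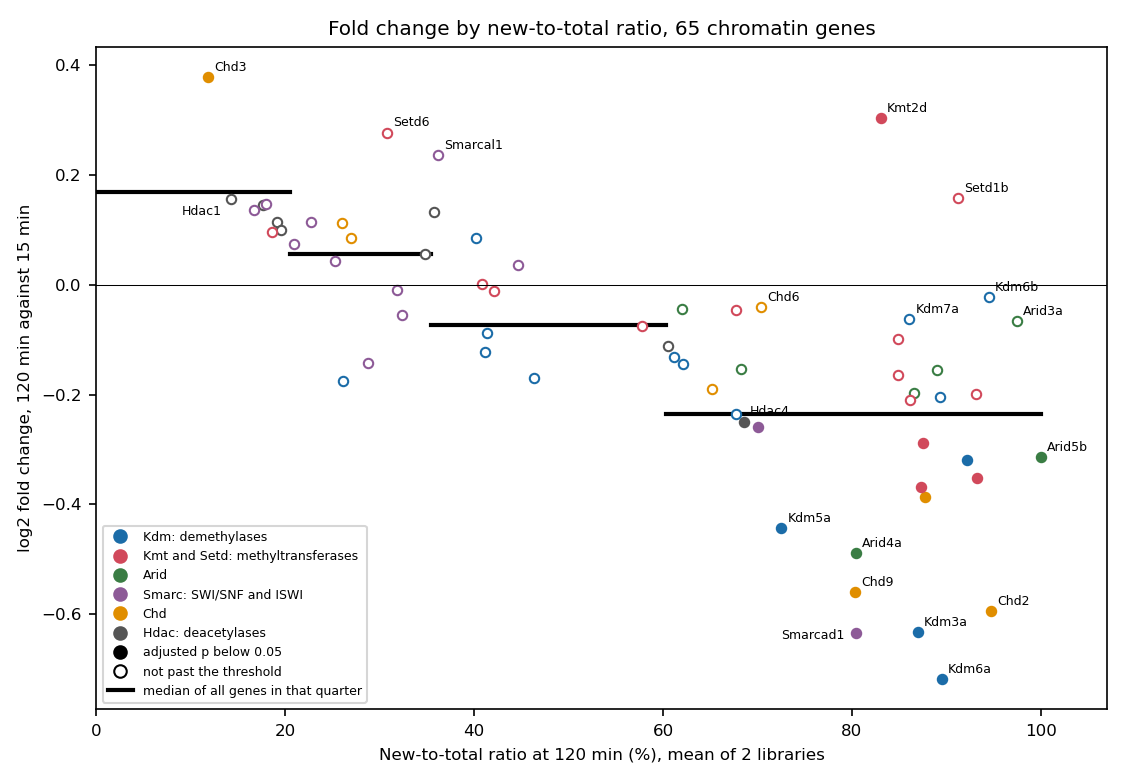
Log2 fold change of 120 min against 15 min plotted against the new-to-total ratio at 120 min (%) for 65 chromatin genes, with filled points for an edgeR adjusted p below 0.05. Black bars are the medians of all genes in each quartile bin of the ratio, from 0.17 in the lowest to -0.24 in the highest; Kmt2d and Setd1b lie above 0 at ratios of 83.0% and 91.2%.

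The new part of every count (NTR times count) was also raised to offset an assumed loss, set for each library at the size that brings the correlation over all genes to 0, which was 34.1% and 35.5% for the 120 min libraries against 15 min. After this 2 genes remained lower at 120 min against 15 min, Kdm6a and Smarcad1, and 2 were higher, Kmt2d and Setd1b. Of all 11617 genes tested, 144 were lower and 96 higher. That scaling removes the relation by construction. The direction of the 18 calls was unchanged by it except for Arid5b, which went to 0.04. The cause of the relation was not tested.

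Within the highest bin the spread was wide, from -0.72 for Kdm6a to 0.30 for Kmt2d. The Spearman correlation of fold change with NTR was -0.232 across the 36 chromatin genes there, against -0.694 over all 65. The bin was cut on the NTR, which narrows its range, so its correlation there cannot be ranked against that of another measure. With the U share of the transcript the correlation in the bin was -0.577, and -0.429 over the 2223 genes of that bin with a transcript model. The relation with U share was looked for after the values were seen, and it is given as a description. Over all 65 chromatin genes the correlation was -0.502 for U share and 0.520 for GC content, which mirrors it. Over the 8940 genes with a transcript model these were -0.262 and 0.278. GC content was not taken further, so the 2 cannot be told apart here.

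**Figure D5:**
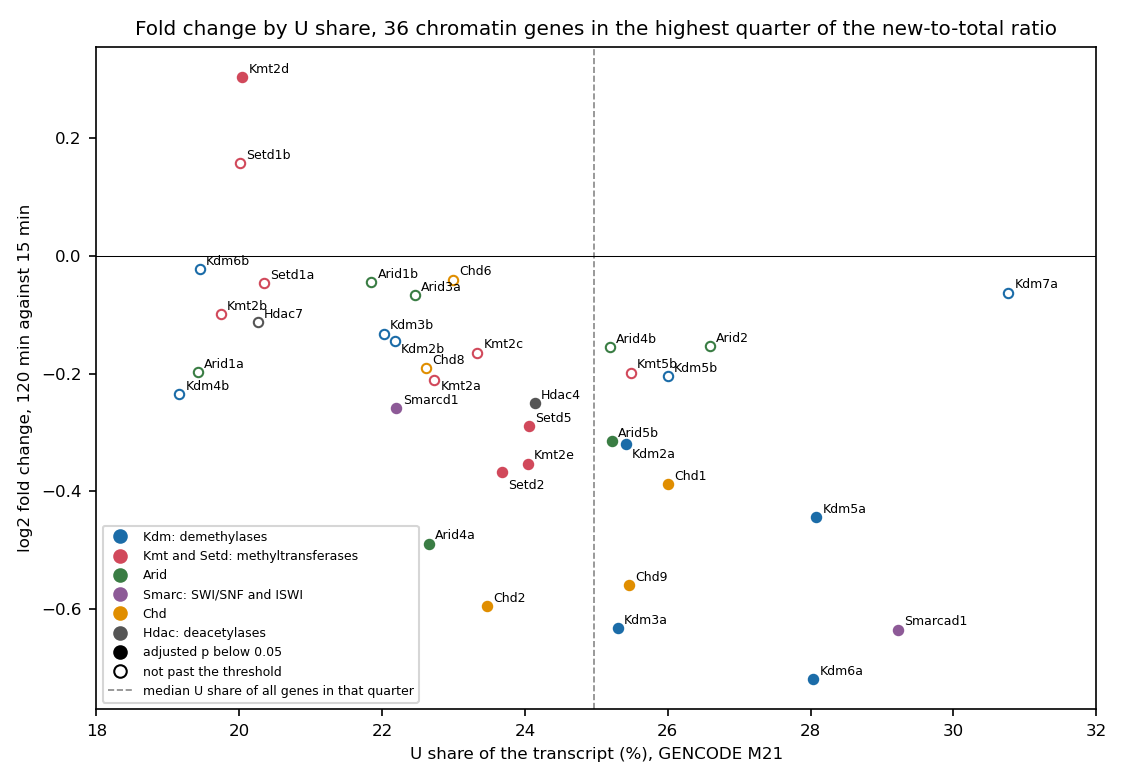
Log2 fold change of 120 min against 15 min plotted against the U share of the longest coding transcript (%) for the 36 chromatin genes above the upper quartile of the new-to-total ratio. The dashed line is the median U share of all genes in that range, 24.96%; right of it 8 of 13 genes are called lower (filled), left of it 7 of 23.

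Of the 13 chromatin genes at or above that bin's median U share of 24.96%, 8 (61.5%) were called lower, and of the 23 below it, 7 (30.4%). Of all genes in the bin, 56.3% and 28.2% were called lower on these sides. The genes called lower on the U-rich side were Kdm6a at 28.0%, Smarcad1 at 29.2%, Kdm5a at 28.1%, Kdm3a at 25.3%, Chd9 at 25.5%, Chd1, Kdm2a and Arid5b. Arid2 at 26.6%, Kdm5b at 26.0%, Kmt5b at 25.5% and Arid4b at 25.2% were on that side without a call. The U-poor side held Kmt2d at 20.0%, the gene that rose, and Setd1b at 20.0% and Kdm6b at 19.5%, which were not called. Chd2, at 23.5%, was lower on the U-poor side, as were Setd2, Kmt2e, Setd5, Arid4a, Smarcd1 and Hdac4. Kdm7a had the highest U share of the 36 genes, 30.8%, without a call. Gene length had a Spearman correlation of 0.546 with the NTR across the 65 genes, and a partial correlation with the fold change, given the NTR, of 0.06, where that of the U share was -0.458. Over all genes these partial correlations were -0.194 for length and -0.35 for the U share.

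The 14 paralogue pairs allow each gene to be set against a close relative in the same libraries. The log2 ratio of the pair was related to labelling time over the 10 labelled libraries with 2-sided permutation tests of 100000 resamples, adjusted over the 14 pairs. This comparison was added after the values were seen, and in 7 of 14 pairs the adjusted p was below 0.05. How often the ratio of any 2 genes of the table would move so with labelling time was not examined. On the slope, 19.5% of all genes tested declined and 18.3% rose, so the count is no result about paralogues as such. The ratio of Kdm6a to Kdm6b went from -0.53 at 15 min to -1.20 at 120 min, with Pearson's r of -0.821 (permutation p = 0.0054, adjusted 0.016) and Spearman's rho of -0.739 (permutation p = 0.021). Without the 120 min libraries r was -0.588.

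Kmt2c and Kmt2d, the paired enhancer methyltransferases, had NTRs of 84.8% and 83.0% and gave the correlation of greatest size among the 14 pairs. Their log2 ratio went from -1.09 to -1.55, with r = -0.960 (permutation p = 3e-05, adjusted 0.00042), rho = -0.935 (permutation p = 0.00028) and r = -0.975 without the 120 min libraries. Smarcc1 and Smarcc2, the paired scaffold subunits of SWI/SNF, went from 0.45 to 0.19, with r = -0.895 (permutation p = 0.00026, adjusted 0.0018) and rho = -0.886 (permutation p = 0.0016). For Chd3 and Chd4, alternative ATPases of NuRD, the ratio rose from -1.66 to -1.37 (r = 0.824, permutation p = 0.0058, adjusted 0.016; rho = 0.837, permutation p = 0.0052).

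Hdac4 declined relative to Hdac5 from -0.47 to -0.76 (r = -0.799, permutation p = 0.0057, adjusted 0.016; rho = -0.812, permutation p = 0.0077). Kdm5a to Kdm5b gave r = -0.740 (permutation p = 0.018, adjusted 0.036; rho = -0.739, permutation p = 0.021), and Arid1a to Arid1b gave r = -0.738 (permutation p = 0.017, adjusted 0.036; rho = -0.739, permutation p = 0.021). Without the 120 min libraries the 5 pairs from Smarcc1 to Arid1a had r of -0.855, 0.623, -0.668, -0.741 and -0.673 in the order given. The other 7 pairs had adjusted permutation p-values from 0.12 to 0.99, which does not show that their members moved alike.

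Paralogues also differed in the labelled share itself. Kdm6b was above Kdm6a in 9 of the 10 labelled libraries, with 90% intervals apart in 3. After 30 min the mean of Kdm6a was 5.94% and that of Kdm6b 21.3%, and after 60 min 43.1% and 54.4%. The means lay the other way round after 90 min, 76.6% for Kdm6a and 71.4% for Kdm6b, with Kdm6a at 84.98% in 1 library and 68.2% in the other. After 120 min Kdm6a was at 88.1% and 90.9% and Kdm6b at 93.3% and 95.6%, so that the libraries did not overlap. Kmt5b, a methyltransferase for lysine 20 of histone H4, was at 93.1% at 120 min and Kmt5c at 57.8%, and Kmt5b was the higher in all 10 labelled libraries, with 90% intervals apart in 8. Hdac4 was at 68.5% and Hdac5 at 34.8%, though Hdac4 was the higher in only 7 of 10 libraries. Arid1a was at 86.5% and Arid1b at 62.0%, and Setd1b at 91.2% and Setd1a at 67.8%, the first of each higher in 9 of 10. Kdm5b, at 89.3%, was above Kdm5a, at 72.5%, in all 10 labelled libraries. Chd4, at 26.9%, was above Chd3, at 11.8%, in 9 of 10. The pairs with the nearest shares were Kmt2a and Kmt2b, 86.1% and 84.9%, and Kmt2c and Kmt2d, for which the intervals were apart in 1 and 0 of 10 libraries.

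Other genes of the same complexes and marks were read from lists chosen by function. The counts that follow stand beside 11.3% of all genes tested called lower and 7.93% higher at 120 against 15 min. By NTR, 41.9% of all genes above the upper quartile were called lower, and 12.4% of those between the median and the upper quartile. In Polycomb repressive complex 2, which places the methyl groups that Kdm6a and Kdm6b remove, 5 of 10 tested genes were lower at 120 min against 15 min and 2 higher by the same edgeR test. Eed fell by 0.62, Mtf2 by 0.54, Suz12 by 0.46, Aebp2 by 0.34 and the catalytic Ezh2 by 0.28 on the log2 scale, while the histone-binding Rbbp4 and Rbbp7 rose by 0.17 and 0.16. The list's median NTR at 120 min was 47.5%, with Rbbp7 at 12.5% as the lowest. Of the 5 lower genes, Ezh2 (43.3%), Suz12 (47.5%) and Aebp2 (51.8%) were between the median and the upper quartile of all genes. Eed (71.8%) and Mtf2 (69.8%) were above the upper quartile.

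Among methyltransferases for lysines 9, 36 and 79 of histone H3 outside the symbol rule, 4 of 11 were lower and 1 higher. Dot1l, the enzyme for lysine 79, fell by 0.31 and Suv39h2 by 0.47, and Ehmt2, with an NTR of 30.7%, rose by 0.19. Of 10 acetyltransferases, the opposing enzymes to the deacetylases, 4 were lower and 1 higher. The coactivator Ep300 fell by 0.30 and its paralogue Crebbp rose by 0.45 on the log2 scale, with NTRs of 89.1% and 95.9%. Of 11 deacetylase corepressors 4 were lower and 2 higher, with Sin3a at -0.22 and Sin3b at 0.23. Of 7 sirtuins, the NAD-dependent deacetylases, Sirt1 fell by 0.50 at an NTR of 90.5% and Sirt2 rose by 0.23 at 8.43%, and the others were not called.

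The lists of complex subunits held the following calls. Of 14 other SWI/SNF subunits 2 were lower and none higher, of 8 NuRD subunits 1 and none, and of 8 ISWI partners 2 and none. Of 10 subunits of COMPASS and related complexes 2 were lower and none higher, and of 14 INO80 and SRCAP subunits 2 and 1. The median NTR was 29.1% in the NuRD list and 36.3% in the SWI/SNF list, near the 30.3% of the Smarc genes, and 60.1% in the ISWI list.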

How the data were processed

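Gene expression was measured by SLAM-seq in 12 libraries of NIH-3T3 cells, grouped by the sample titles, which also give the letters A and B. The authors deposited 1 table of 17419 genes. Per the file headers it holds estimated counts per gene and library, not scaled between libraries. Of these, 20.4% were not whole (tolerance 1e-06), and they were rounded before testing. The NTR was deposited by the authors as a fraction, as a posterior maximum (used here), a posterior mean and a 90% interval. Also deposited, and left unused, were alpha and beta, each a score that parametrises the NTR distribution. Cutadapt, Bowtie2 2.3.0 and STAR 2.7.10b are named in the submitters' processing notes. The counting tool, its use of strand and the genome build are not given in sources available here. Heavily converted reads may be lost at alignment, and reads shared between genes may be divided, which the errors given do not cover.

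Tests on counts used edgeR 4.0.16 under R 4.3.3 (filterByExpr, TMM factors 0.97 to 1.02, quasi-likelihood, groups only, all 12 libraries in 1 fit, 11564 genes, biological coefficient of variation 4.44%). The slope on labelling time in hours used the 10 labelled libraries (11526 genes). Adjustment was Benjamini-Hochberg over all genes tested, with a threshold of 0.05, and the SE was the log2 fold change divided by the square root of F. The fits were also run on simulated counts. Those held no shift with NTR or gene length, so they do not show how the fits behave under such shifts. CPM values are TMM-scaled. NTR measures were limited to genes averaging at least 100 counts. The U share came from the longest basic coding transcript of GENCODE M21 (GRCm38), aligned sequences were compared with Biopython 1.88, and 8940 of 9065 genes had a transcript model. With 2 libraries a group no exact test of a group difference can go below p = 0.333.

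The genes and lists were chosen with earlier results of these data known. Genes named in the text were those past the threshold for 120 against 15 min with libraries that did not overlap and a mean count of at least 100 (up to 15 in each direction), the 5 highest and 5 lowest by NTR, a list by role and the 14 pairs; others named were chosen after their values were seen. Alternatives were DESeq2 1.42.0, library size alone, no filter, the replicate letter as a block, the labelled part scaled up, only the groups compared, and each library left out.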

Additional observations from a re-analysis of the deposited data

How the results depend on the processing

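With the labelled part of each count scaled up by the implied loss, 2 genes were lower at 120 min against 15 min (16 as reported), 2 against no4sU (11) and 8 with labelling time (26). Over all genes these counts were 144 (1311), 102 (1015) and 856 (2251). That scaling turned the direction of Arid5b at 120 against 15 min (0.038). Against no4sU it turned Kmt2e (0.029), Setd5 (0.019) and Kdm2a (0.0042). On the slope it turned Kmt2a (0.026), Kmt2b (0.093), Arid1a (0.050), Kdm6b (0.15), Arid3a (0.15), Hdac2 (-0.015), Arid5b (0.017), Smarcc2 (-0.0009), Arid2 (0.016), Setd5 (0.0048), Kmt2c (0.076), Arid4b (0.057), Setd1a (0.078), Kmt5b (0.026) and Kdm2a (0.0023). Among these slopes, those of Kmt2b, Kdm6b, Arid3a and Setd1a had not been called before the scaling. Library size alone gave 18 lower against no4sU and 3 higher with labelling time (7 as reported). Over all genes it gave 1684 lower against no4sU (1015 as reported) and 1172 higher with labelling time (2111). A fit of only the 2 groups compared gave 3 lower and 0 higher against no4sU by edgeR, with 15 of the 74 genes at an unadjusted p below 0.05. DESeq2 over all 12 libraries gave 10 and 2 against no4sU. No filter on low counts, and the slope without the 15 min group, each gave 4 higher with labelling time. The median NTR at 30 min was 7.35% from the posterior mean, 5.54% for genes averaging 1000 counts or more and 5.93% with no minimum. With the 1000 count minimum it was 20.8% at 60 min and 34.98% at 90 min. At 120 min the 3 settings gave 63.5%, 51.3% and 63.4%. The cause of these differences was not tested.

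Leaving out 1 library at a time gave 7 to 22 genes lower and 1 to 4 higher at 120 against 15 min, 4 to 26 lower and 0 to 8 higher against no4sU, and 17 to 27 lower and 4 to 6 higher with labelling time. The median NTR of a single library was 0.73% or 1.75% at 15 min, 6.50% or 6.60% at 30 min, 23.4% or 25.3% at 60 min and 40.8% or 42.7% at 90 min. Smarca5 against no4sU went from -0.12 without no4sU A to 0.17 without no4sU B, and Kmt2c from -0.23 to 0.49. DESeq2 gave 13 lower and 2 higher at 120 against 15 min, with no change of direction among the genes called. Over all genes it gave 886 lower and 567 higher. Where a fit leaves 1 library in a group, that library is assumed to vary like the others. The counts over all genes also changed with the library left out.

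With the replicate letter as a replicate block, 16 genes were lower and 2 higher at 120 against 15 min, 11 and 2 against no4sU and 26 and 7 with labelling time, the same genes as without it. The letters did not pair the libraries: correlations of the A minus B difference between groups ran from -0.073 to 0.090 over 15 pairs of groups.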
